A study of Mus musculus with 6 samples.

Results

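Immediate early genes were followed in parvalbumin-positive sensory neurons with and without Dicer. The members are 10 named genes (Fos, Fosb, Egr1, Egr3, Arc, Nr4a1, Ier2, Dusp1, Btg2 and Zfp36), chosen by name from a table of 31469 rows. All 10 had a row, each had 1 row only, and all 10 reached the mean of 1 TPM (a length-scaled relative abundance of transcripts within a library) needed to enter the test, beside 13787 tested rows in all. The animals were C57BL/6 mice at postnatal day 21, and the libraries were made from parvalbumin-positive neurons of the lumbar 4 dorsal root ganglion, the ganglion that holds sensory neuron cell bodies. There were 3 knockout (KO) libraries, labelled as a pvalb-driven dicer knockout, and 3 wild-type (WT) libraries. Cre under parvalbumin control removed Dicer, so the deletion reaches cells that have switched parvalbumin on; no Cre or floxed Dicer allele is named for the WT animals. The comparison asks what changes in these neurons when Dicer, the ribonuclease that makes mature microRNAs, is removed.

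Immediate early genes are switched on within minutes of a stimulus, without new protein synthesis. Calcium entry and growth factor signals activate kinases, which act on the factors SRF, ELK and CREB already bound at these promoters. Some of the products are transcription factors that carry the response on, and others shut it down by dephosphorylating kinases or by destroying the transcripts. Many of the transcripts carry AU-rich elements and are short-lived. In sensory neurons the genes are used as readouts of activity and injury, and in many tissues they also respond to dissection and handling.

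In KO libraries Fos was 1.82 times as high as in WT libraries, and it was the only member of 10 that passed the test (limma, adjusted p below 0.05; 5.03% of all tested rows passed it). The Fos call ended when any single library was left out, and in 11 of 18 other settings of the fit in all. Dusp1, Btg2 and Zfp36 had higher mean levels in KO libraries without passing, and Zfp36 and Btg2 did not overlap between the groups. The transcription factors Fosb, Egr1, Egr3 and Nr4a1 had log2 differences (KO minus WT) of -0.00070, -0.07, -0.83 and -0.28. None of these passed, and the sign of each turned under some other setting of the fit. Ier2 lay lower in every KO than in any WT library without passing. Over all tested rows, 11.8% lay higher in every KO than in any WT library and 17.1% lay lower.

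The promoters of the members with the highest KO levels relative to WT are shown because activity acts on these genes through elements of the promoter. They run from 250 bases before to 50 bases after the start site in RefSeq (GRCm38.p6), and 6 of 10 members had an entry in that table; Egr1, Egr3, Arc and Ier2 are named only. Capitals mark the motifs TGACG (the core of the cAMP response element, CRE, bound by CREB), its full palindrome TGACGTCA, GCGNGGGCG (the site of EGR factors) and the CArG box (the site of SRF). Both strands were searched, so a CRE core can read CGTCA, and each full CRE also counts as a core on both strands. The entries are Fos at chr12:85473640-85473939 (plus strand), Dusp1 at chr17:26508423-26508722 (minus strand), Btg2 at chr1:134079106-134079405 (minus strand) and Zfp36 at chr7:28379179-28379478 (minus strand).
Fos: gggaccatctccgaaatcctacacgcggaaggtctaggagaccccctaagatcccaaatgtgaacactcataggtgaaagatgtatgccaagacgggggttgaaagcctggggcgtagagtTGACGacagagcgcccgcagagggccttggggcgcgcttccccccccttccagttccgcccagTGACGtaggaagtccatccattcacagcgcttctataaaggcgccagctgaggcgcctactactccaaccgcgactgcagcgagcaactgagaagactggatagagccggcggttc
Dusp1: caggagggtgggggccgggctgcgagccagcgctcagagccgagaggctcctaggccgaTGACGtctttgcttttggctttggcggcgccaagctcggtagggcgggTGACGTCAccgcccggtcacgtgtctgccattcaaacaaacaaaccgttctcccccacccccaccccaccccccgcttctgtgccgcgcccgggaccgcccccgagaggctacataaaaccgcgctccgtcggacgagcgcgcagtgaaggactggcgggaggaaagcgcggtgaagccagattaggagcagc
Btg2: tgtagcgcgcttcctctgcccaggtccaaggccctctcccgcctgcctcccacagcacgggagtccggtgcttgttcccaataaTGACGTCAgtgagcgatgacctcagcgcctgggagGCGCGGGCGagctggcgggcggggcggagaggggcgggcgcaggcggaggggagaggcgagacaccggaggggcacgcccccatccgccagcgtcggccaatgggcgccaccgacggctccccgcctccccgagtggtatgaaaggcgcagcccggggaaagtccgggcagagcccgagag
Zfp36: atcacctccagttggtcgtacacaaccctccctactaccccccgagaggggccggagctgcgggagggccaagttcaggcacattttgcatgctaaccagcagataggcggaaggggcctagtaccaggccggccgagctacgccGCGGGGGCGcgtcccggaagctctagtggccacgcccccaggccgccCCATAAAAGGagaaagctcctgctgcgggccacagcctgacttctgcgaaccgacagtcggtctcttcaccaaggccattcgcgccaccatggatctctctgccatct

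The CRE core was in 5 of 6 member promoters (all but Zfp36), against 20.8% of 32851 promoters of the same length. It starts at -129 and -66 in Fos, counted from the start site, and Nr4a1 has 4 matches. The full CRE was in 2 of 6 (Dusp1 and Btg2), against 1.79% of promoters. The EGR motif was in 4 of 6 (Fosb, Nr4a1, Btg2 and Zfp36), against 5.55%, and the CArG box in 1 of 6 (Zfp36, from -58), against 1.63%. These matches describe the letters in this window only.

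The 3' untranslated regions were read from GENCODE vM21 (GRCm38), taking the longest annotated region of each gene. The 7-base core of an AU-rich element, TATTTAT on the transcript strand, was in 5 of 10 members, against 31.3% of 11515 tested genes. It occurred 3 times in Dusp1, 3 times in Zfp36 and 2 times in Fos, and 11.6% of tested genes had 2 or more copies. Fosb and Btg2 had 1 copy each, and Egr1, Egr3, Arc, Nr4a1 and Ier2 had 0. Zfp36 encodes tristetraprolin, which binds such elements and speeds decay of the transcript. The site nearest the stop codon is shown for the members with 2 or more copies, with the element in capitals.
Fos: tttcaattTATTTATtaagatgg
Dusp1: ctggtcctTATTTATttaacacc
Zfp36: gggcccttTATTTATgacgactt

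The log2 differences of the members with 2 or more copies were 0.80 for Fos, 0.71 for Dusp1 and 1.20 for Zfp36, of which that of Fos passed. Over all tested genes the median log2 differences were -0.04 for 1332 genes with 2 or more copies, -0.10 for 2267 genes with 1 and -0.06 for 7916 genes with 0. The element was looked at after the members' values were known.

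Since Dicer makes the microRNAs, sites for 10 well-studied microRNAs were also searched, as 7-base matches to the seed (bases 2 to 8). The microRNAs with sites in Fos are shown, in RefSeq's sequence with the seed in capitals; they share no seed.
mmu-miR-7a-5p: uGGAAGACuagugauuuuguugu
mmu-miR-101a-3p: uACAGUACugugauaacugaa
mmu-miR-34a-5p: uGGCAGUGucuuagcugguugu

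The matching sites in the Fos transcript, in capitals, are these.
miR-7a site: agaaacacGTCTTCCctcgaagg
miR-101a site: atatccatGTACTGTagtccttc
miR-34a site: agacgtgcCACTGCCcgagctgg

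The miR-7a site was in Fos, Egr3 and Zfp36, 3 of 10 members, against 14.2% of tested genes. The miR-101a site was in Fos and Dusp1 (11.8% of tested genes) and the miR-34a site in Fos and Fosb (18.0%). Among all tested genes the median log2 difference was -0.09 with a miR-7a site and -0.06 without, -0.10 with and -0.06 without a miR-101a site, and -0.05 with and -0.07 without a miR-34a site. Of the other microRNAs, miR-182-5p had sites in Egr3, Arc and Zfp36, 3 of 10 members, against 13.2% of tested genes. The miR-183-5p site was in Egr1 (11.3% of tested genes) and the miR-132-3p site in Btg2 (13.4%). Egr3 had sites for let-7a-5p (10.6%) and miR-9-5p (14.7%). Sites for miR-96-5p (10.1%) and miR-155-5p (9.82%) were in 0 of 10 members.

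The libraries had similar numbers of rows at 1 TPM or more (13237 to 13960). Dicer1 was at 20.8 to 24.0 TPM in KO and 26.0 to 48.7 TPM in WT libraries, with no overlap (log2 difference -0.68, adjusted p = 0.104); the value covers the whole gene and does not isolate the deleted part. Replicate 3 of each group stood apart in sex-linked transcripts, with Xist at 0 TPM in KO and 0.06 TPM in WT, against 32.9 and 69.5 TPM in the other KO and 22.2 and 46.1 TPM in the other WT libraries. Of the 5 proprioceptor markers with a row, 4 were called lower (Pvalb, Runx3, Etv1 and Spp1), against 3.17% of all tested rows. The sum over the 5 was 562.5 to 765.7 TPM in KO and 1270 to 1411 TPM in WT libraries. In such bulk samples fewer cells of a type and less RNA per cell cannot be told apart. KO replicate 3 also stood apart in Pvalb, at 13.98 TPM against 4.02 and 3.69 TPM in KO replicates 1 and 2, and in Fabp7 of satellite glia, at 353.8 TPM against 184.6 and 103.9 TPM. Other markers of these lists were divided. Runx3 and Apoe were also highest in KO replicate 3 among KO libraries. Etv1 (259.9 TPM against 382.8 and 286.9 TPM) and S100b (1220 TPM against 1225 and 1354 TPM) were lowest there. The proprioceptor sum of KO replicate 3, 658.5 TPM, lay between those of the other KO libraries.

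Levels were low to moderate. In KO libraries the members' means ran from 1.72 TPM for Ier2 to 35.3 TPM for Dusp1, and in WT libraries from 2.69 TPM for Fosb to 20.6 TPM for Dusp1. Dusp1 stood at the percentile 63.1 of tested rows by mean level, Fos at 49.6 and Nr4a1, the lowest, at 14.6, with a median of 23.8 over the members. In KO libraries the order was Dusp1, Fos, Arc, Egr1, Zfp36, Btg2, Fosb, Egr3, Nr4a1 and Ier2; Fos stood clear of Arc, Zfp36 of Btg2 and Btg2 of Fosb, and all other neighbours overlapped. In WT libraries Dusp1 stood clear of Egr1, and every later pair of neighbours overlapped (Egr1, Fos, Arc, Ier2, Egr3, Zfp36, Nr4a1, Btg2 and Fosb). The sum over the members was 92.9, 115.02 and 99.4 TPM in KO libraries and 74.1, 78.5 and 72.4 TPM in WT libraries. These sums did not overlap, and Dusp1 and Fos made up most of the gap.

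**Figure D1:**
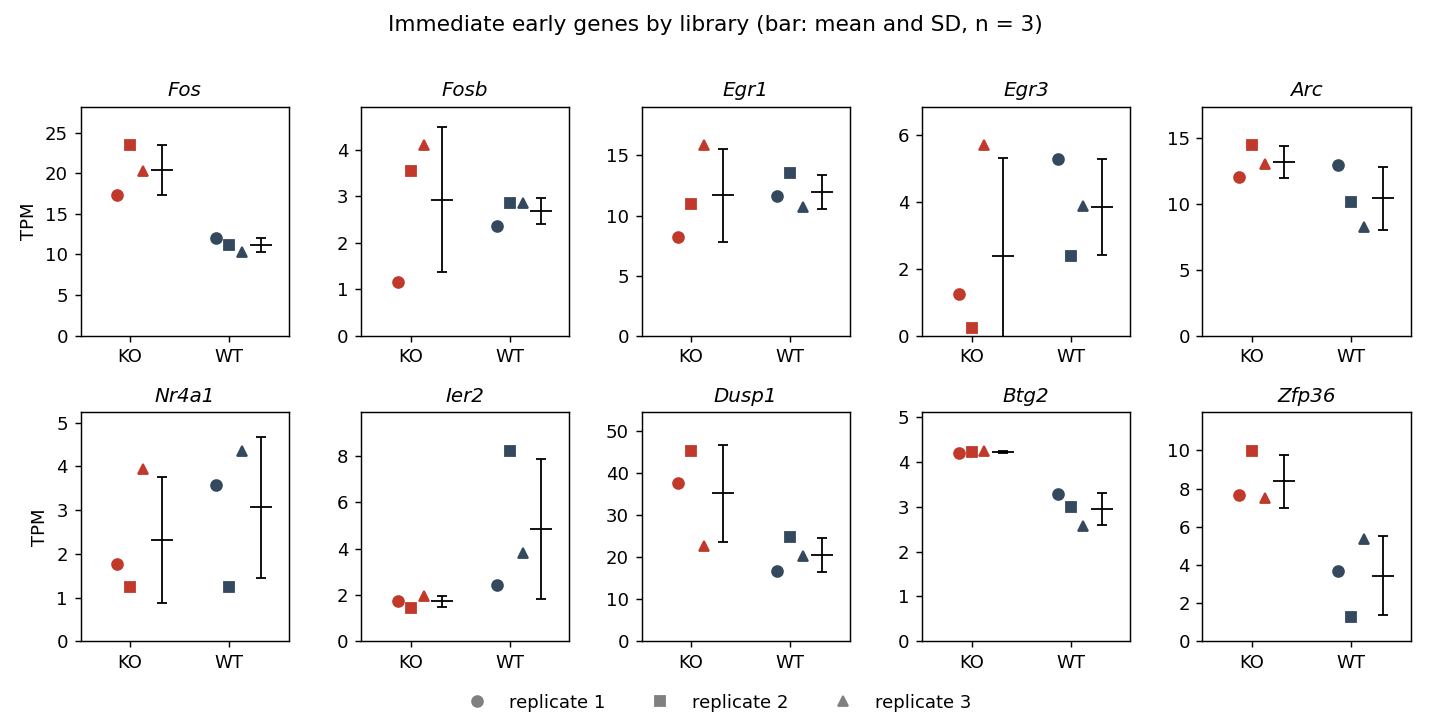
TPM (vertical axes, from 0, scaled per gene) of the 10 immediate early genes in the 3 KO (red) and 3 WT (dark) libraries; marker shapes give the replicate number and the bars the mean and SD (n = 3), cut off at 0 for Egr3. Fos, Zfp36 and Btg2 lie higher in every KO library than in any WT library, Ier2 lies lower, and the other 6 overlap.

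Fos encodes a subunit of the transcription factor AP-1, which pairs with a Jun protein (chromosome 12, 85473890 to 85477273, GRCm38). Fos was at 17.3, 23.5 and 20.3 TPM in KO libraries (replicates 1 to 3) and at 12.1, 11.1 and 10.3 TPM in WT libraries. Every KO value lay above every WT value. The means were 20.4 ± 3.08 TPM in KO and 11.2 ± 0.86 TPM in WT libraries (SD, n = 3 each), a ratio of 1.82. This gave a log2 difference of 0.80 (SE 0.18, 95% interval 0.39 to 1.22, limma adjusted p = 0.0408 over all tested rows). The size ran from 0.64 to 0.91 over the alternatives, but the call ended when any single library was left out, with adjusted p from 0.0535 (without WT replicate 1) to 0.14 (without KO replicate 2). In all it ended in 11 of 18 alternatives, among them without replicate 3 of both groups (0.192) and the fit with the mean log2 level of the satellite glia markers as a covariate (0.152).

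Fosb, a close relative that also pairs with Jun proteins (chromosome 7, 19302696 to 19310051), was not called. It was at 1.15, 3.54 and 4.11 TPM in KO libraries and at 2.37, 2.85 and 2.85 TPM in WT libraries, so the KO values lay on both sides of the WT values. Fosb had a log2 difference of -0.00070 (95% interval -0.86 to 0.86, adjusted p = 0.999), and its sign turned under several alternatives. That interval takes in the Fos difference of 0.80, so Fos and Fosb were not shown to differ. Their correlation over the 6 libraries was 0.21, and 0.66 after removing each group's mean. The ratio of Fos to Fosb, both in TPM, was 15.1, 6.63 and 4.95 in KO libraries and 5.09, 3.90 and 3.63 in WT libraries. The ratio overlapped between the groups, since KO replicate 3 lay just below WT replicate 1.

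Egr1 and Egr3 encode zinc finger factors of the EGR family; Egr3 is needed for the development of muscle spindles, the end organs of most proprioceptors. Egr1 (chromosome 18, 34859823 to 34864984) was at 8.24, 11.0 and 15.9 TPM in KO libraries and at 11.6, 13.5 and 10.7 TPM in WT libraries. The WT values lay inside the KO range, and the log2 difference was -0.07 (95% interval -0.63 to 0.49, adjusted p = 0.897), with its sign turned by rescaling of the libraries. Egr3 (chromosome 14, 70077203 to 70082614) was at 1.23, 0.22 and 5.69 TPM in KO libraries and at 5.26, 2.38 and 3.87 TPM in WT libraries. KO replicate 3 had the highest Egr3 value of all 6 libraries and the other 2 KO libraries the lowest. For Egr3 the log2 difference was -0.83 (SE 0.58, adjusted p = 0.423), it was -1.51 without KO replicate 3 (adjusted p = 0.109), and -0.28 without KO replicate 2 (adjusted p = 0.821). With the satellite glia covariate it turned to 0.018 (adjusted p = 0.99), and the interval of the main value ran from -2.15 to 0.48.

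Nr4a1, an orphan nuclear receptor (chromosome 15, 101254269 to 101274795), had a similar picture. It was at 1.77, 1.23 and 3.94 TPM in KO libraries and at 3.57, 1.25 and 4.36 TPM in WT libraries. Each group held both low and high values, and the log2 difference was -0.28 (95% interval -1.29 to 0.72, adjusted p = 0.74). It turned to 0.47 with the satellite glia covariate (adjusted p = 0.512), and ran from -0.66 to -0.037 when single libraries were left out. KO replicate 3 was the highest KO library for 4 of the 5 transcription factors (all but Fos), and for Dusp1 and Zfp36 it was the lowest. The part of its higher Pvalb and Fabp7 levels, given above, in these values was not tested.

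**Figure D2:**
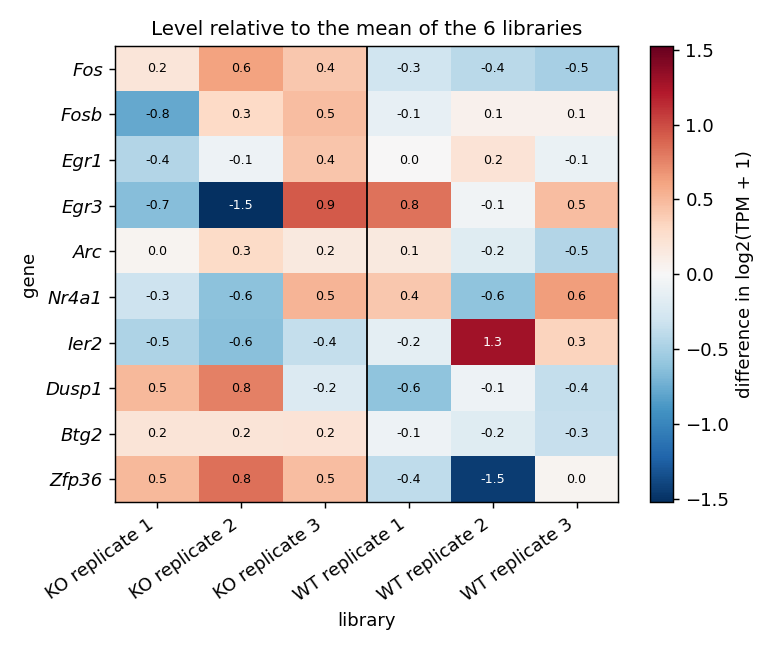
Each cell gives a library's log2(TPM + 1) minus the mean of the 6 libraries for that gene (rows: genes; columns: libraries, KO left of the line and WT right; red is above and blue below the mean). Fos, Btg2 and Zfp36 are red in all KO columns, Egr3 is blue in KO replicates 1 and 2 and red in KO replicate 3, and Ier2 is highest in WT replicate 2.

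Ier2, a nuclear protein that regulates transcription (chromosome 8, 84661331 to 84662852), was the only member with all KO values below all WT values. It was at 1.75, 1.45 and 1.95 TPM in KO libraries and at 2.43, 8.23 and 3.83 TPM in WT libraries. KO libraries were close together, while WT replicate 2 stood far above the other WT libraries. The log2 difference was -0.98 (SE 0.39, adjusted p = 0.171) and did not pass; it was -0.59 without WT replicate 2 (adjusted p = 0.406), and over all alternatives the adjusted p ran from 0.0921 to 0.406.

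Arc encodes a synaptic protein that promotes internalisation of AMPA receptors (chromosome 15, 74669083 to 74672570). It was at 12.0, 14.5 and 13.0 TPM in KO libraries and at 12.95, 10.1 and 8.21 TPM in WT libraries. The KO library was higher in 8 of 9 comparisons of a KO with a WT library, WT replicate 1 being above KO replicate 1. Arc had a log2 difference of 0.33 (95% interval -0.15 to 0.81, adjusted p = 0.39) and did not pass.

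Dusp1 encodes a phosphatase that switches off MAP kinases and so ends the signal that induces these genes (chromosome 17, 26505590 to 26562128). It was at 37.6, 45.5 and 22.7 TPM in KO libraries and at 16.8, 24.8 and 20.3 TPM in WT libraries. KO replicates 1 and 2 stood above all WT libraries, and KO replicate 3 fell among them. For Dusp1 the log2 difference was 0.71 (SE 0.26, 95% interval 0.13 to 1.29, adjusted p = 0.138). Without KO replicate 3 it was 0.99 and passed (adjusted p = 0.044), and with the satellite glia covariate it was 0.34 (adjusted p = 0.497).

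Zfp36 had the largest positive difference among the members (chromosome 7, 28376784 to 28380253). It was at 7.65, 9.99 and 7.52 TPM in KO libraries and at 3.70, 1.25 and 5.34 TPM in WT libraries. The groups did not overlap, but WT replicate 2 was low, and the spread within groups was wide. The means were 8.39 ± 1.39 TPM in KO and 3.43 ± 2.06 TPM in WT libraries (SD, n = 3 each), a log2 difference of 1.20 (95% interval 0.34 to 2.06, adjusted p = 0.1) that did not pass. Without WT replicate 2 it was 0.77 (adjusted p = 0.176), and over all alternatives the adjusted p ran from 0.0705 to 0.264.

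Btg2, an antiproliferative factor that promotes deadenylation of transcripts (chromosome 1, 134075170 to 134079120), was at 4.20, 4.21 and 4.25 TPM in KO libraries and at 3.29, 2.99 and 2.56 TPM in WT libraries. KO values were nearly equal and all above the WT values, with a ratio of means of 1.43. The log2 difference was 0.41 (95% interval -0.17 to 0.99, adjusted p = 0.376); limma draws the spread of a row towards that of rows of like level, so the small spread of Btg2 counted for little.

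Over the list, 1 of 10 members was called higher and 0 were called lower by limma, against 1.86% and 3.17% of all tested rows (5.03% in either direction). At an unadjusted p below 0.05, 3 were higher (Fos, Dusp1 and Zfp36) and 1 was lower (Ier2), against 9.77% and 14.1% of tested rows. The groups did not overlap for 4 of 10 members, 3 with higher and 1 with lower KO values, against 28.9% of tested rows (11.8% higher and 17.1% lower). The median log2 difference was 0.16, beside -0.05 for all tested rows, with 5 members positive and 5 negative. Without KO replicate 3 the median was 0.047 and without KO replicate 1 it was 0.39. Within groups the median SD was 0.44 on the log2 scale against 0.26 for all tested rows, and 7 of 10 members exceeded that value of all rows. Fos, Arc and Btg2 lay below it, at 0.16, 0.23 and 0.096. The rows were not matched for level, and the members' median level percentile was 23.8.

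**Figure D3:**
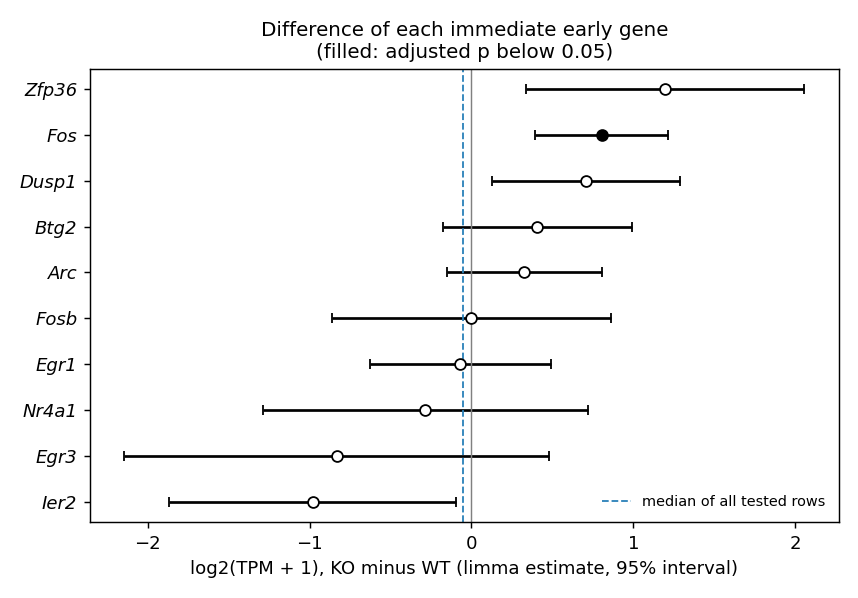
Estimated difference in log2(TPM + 1), KO minus WT, with its 95% interval from limma (horizontal axis) for each member; filled circles passed the adjusted threshold of 0.05 and the dashed line is the median of all tested rows. Only Fos is filled, while the intervals of Zfp36, Dusp1 and Ier2 also leave out 0.

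The members showed no common pattern across libraries. Of 45 pairs of members, 25 were positively correlated over the 6 libraries, with a median r of 0.08, and 23 were after removing each group's mean (median 0.05). These are descriptions over 6 libraries that share their processing. Among examples from the 45 pairs, Egr3 and Nr4a1 went together (r = 0.83, and 0.83 after removing group means). So did Fosb and Egr1 (0.83 and 0.83) and Arc and Btg2 (0.86 and 0.91). Egr3 and Dusp1 went opposite ways (-0.94 and -0.99), as did Ier2 and Zfp36 (-0.92 and -0.81). Fos had its highest r with Btg2 (0.94 and 0.44), followed by Arc (0.80 and 0.75), and its lowest with Ier2 (-0.77 and -0.26). The 5 rows most like Fos among 10328 other rows averaging 5 TPM or more were Gm20939, Ttyh3, Nelfa, Itch and Hps4 (r from 0.997 to 0.988), none of them an immediate early gene. Fosb, Egr3, Nr4a1, Ier2 and Btg2 averaged less than 5 TPM and were not among the rows searched. Rows chosen for their likeness to Fos carry its difference between the groups by that choice. Their log2 differences ran from 0.18 for Itch to 0.83 for Ttyh3, and the adjusted p of Gm20939, Nelfa, Itch and Hps4 was 0.0603, 0.0984, 0.37 and 0.262. Ttyh3, which encodes a membrane protein of the tweety family, was at 12.1, 15.7 and 13.4 TPM in KO libraries and at 8.03, 7.02 and 6.69 TPM in WT libraries (log2 difference 0.83, adjusted p = 0.048).

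Among relatives and partners of the members, 1 of 22 tested passed. Of 27 genes listed, Junb was not matched to a row, 0 were called higher and 1 lower (0 and 2 at an unadjusted p below 0.05). Over all tested rows 1.86% were called higher and 3.17% lower (9.77% and 14.1% at an unadjusted p below 0.05). Jun, the AP-1 partner with the highest level, was at 63.7, 80.8 and 70.9 TPM in KO libraries and at 83.4, 107.7 and 88.05 TPM in WT libraries (log2 difference -0.37, adjusted p = 0.165), so that its values lay below WT where those of Fos lay above. Tob1, a relative of Btg2, was at 26.7 ± 4.30 TPM in KO and 28.1 ± 2.54 TPM in WT libraries (SD, n = 3 each). Dusp5, a nuclear phosphatase specific for ERK kinases, was at 2.14, 2.31 and 2.16 TPM in KO libraries and at 5.61, 5.48 and 5.77 TPM in WT libraries. It fell (log2 difference -1.05, adjusted p = 0.0486), whereas Dusp1 had a positive difference that did not pass, and the Dusp5 call ended when any single library was left out (adjusted p from 0.0887 to 0.145) and in 13 of 17 alternatives in all. The median over the list was -0.09. Egr2 was at 0.61 TPM or less in every library, and Fosl1 and Dusp2 were listed at 0 in all 6.

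Among other activity-induced genes, Bdnf and Vgf rose and Scg2 fell. Of 32 listed, 27 were tested, 2 rose, 1 fell and 24 did not pass, with a median log2 difference of -0.01. By unadjusted limma p below 0.05, 5 were higher and 1 was lower. Over all tested rows 1.86% were called higher and 3.17% lower, and 9.77% were higher and 14.1% lower by unadjusted p below 0.05. Bdnf, the neurotrophin, was at 30.5, 37.0 and 26.0 TPM in KO libraries and at 16.9, 13.5 and 8.78 TPM in WT libraries. It rose with no overlap (log2 difference 1.22, adjusted p = 0.0268). Vgf, a neuropeptide precursor induced by neurotrophins, was at 15.1, 16.1 and 12.05 TPM in KO libraries and at 6.14, 4.78 and 3.33 TPM in WT libraries (log2 difference 1.44, adjusted p = 0.0159).

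Scg2, which encodes secretogranin II of dense-core vesicles, went the other way. It was at 30.7, 43.7 and 35.7 TPM in KO libraries and at 116.2, 148.6 and 87.5 TPM in WT libraries (log2 difference -1.63, adjusted p = 0.0045). The Scg2 call held in all 18 alternatives, while that of Vgf ended in 4, including without KO replicate 1 (adjusted p = 0.0782) and without KO replicate 2 (0.0669). The Bdnf call ended in 8, including without KO replicate 1 (0.0989), KO replicate 2 (0.0988), WT replicate 2 (0.0552) and WT replicate 3 (0.0619). Rheb and Mcl1, the highest of the list, did not pass, at 211.0 ± 5.43 and 103.5 ± 29.6 TPM in KO and 238.6 ± 38.7 and 125.2 ± 23.9 TPM in WT libraries (SD, n = 3 each). Npas4, an activity-induced factor of neurons, was below 1 TPM in every library.

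No kinase or transcription factor upstream passed. Of 27 tested by limma, 0 were called, while 3 were higher and 6 lower by unadjusted p under 0.05, with a median log2 difference of -0.10. Over all tested rows 5.03% were called, and 9.77% were higher and 14.1% lower by unadjusted p under 0.05. Mapk3, which encodes the kinase ERK1, was at 659.8 ± 39.8 TPM in KO and 519.0 ± 50.5 TPM in WT libraries (SD, n = 3 each; log2 difference 0.35, adjusted p = 0.102).

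Heat shock genes were listed because they often rise with immediate early genes when tissue is handled. Of 10 tested, 1 rose and 1 fell, against 1.86% and 3.17% of all tested rows. By unadjusted limma p below 0.05, 1 was higher and 4 were lower, against 9.77% and 14.1% of all tested rows. Every KO value lay above every WT value for 1 gene and below for 5, against 11.8% and 17.1% of all tested rows. Hspb1, a small heat shock protein of sensory neurons, was at 838.4 ± 123.1 TPM in KO and 336.1 ± 20.4 TPM in WT libraries (SD, n = 3 each; log2 difference 1.31, adjusted p = 0.00197). Dnaja1, a cochaperone of HSP70, was at 207.7, 196.3 and 260.2 TPM in KO libraries and at 293.2, 385.8 and 372.1 TPM in WT libraries (log2 difference -0.66, adjusted p = 0.0407), a call that ended without KO replicate 1, KO replicate 2, WT replicate 2 or WT replicate 3 (adjusted p from 0.107 to 0.14). The stress-inducible Hspa1a was at 3.38, 2.79 and 3.88 TPM in KO libraries and at 4.69, 2.34 and 4.79 TPM in WT libraries, and the groups overlapped. The highest genes, Hspa8 and Hsp90aa1, were at 4061 ± 576.6 and 1793 ± 87.4 TPM in KO and 5237 ± 549.2 and 2061 ± 156.9 TPM in WT libraries, and neither passed. The list's median log2 difference was -0.24.

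**Figure D4:**
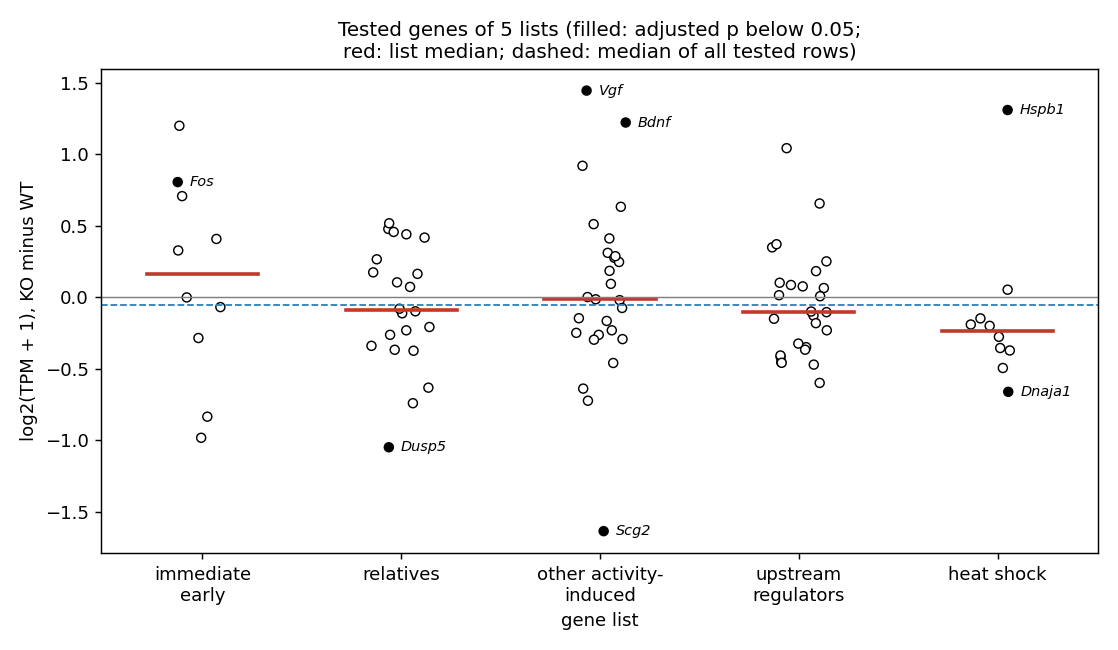
Log2 difference, KO minus WT, of the tested genes of 5 lists (points, spread sideways for display; filled points passed the adjusted threshold of 0.05 and are named). Red bars are list medians, from 0.16 for the immediate early genes to -0.24 for the heat shock genes, and the dashed line is the median of all tested rows (-0.05).

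Transcripts of other cells that express immediate early genes were present at differing levels. The 10 satellite glia markers summed to 1786 to 2178 TPM in KO and 2077 to 3061 TPM in WT libraries. By limma 2 of 10 were called lower (Fabp7 and Gja1), against 3.17% of all tested rows. Glul lay higher in every KO than in any WT library without passing (log2 difference 0.65, limma adjusted p = 0.105). S100b made up most of the KO sums, at 1220 to 1354 TPM in KO and 1247 to 1317 TPM in WT libraries (log2 difference -0.0093), while the median log2 difference of the list was -0.78. The 6 myelinating Schwann cell genes summed to 1039 to 1391 TPM in KO and 447.8 to 527.4 TPM in WT libraries, nearly all of it Pmp22, which rose (log2 difference 1.34, adjusted p = 0.00212) and which neurons also express. Mbp of the same list lay lower in every KO than in any WT library without passing (log2 difference -0.94, limma adjusted p = 0.0568). The 7 macrophage genes summed to 3.57 to 5.39 TPM in KO and 6.02 to 8.76 TPM in WT libraries, with Ctss and C1qa at 0 in all 6. The 6 endothelial and mural genes with a row summed to 19.4 to 29.6 TPM in KO and 12.7 to 20.3 TPM in WT libraries, with Cldn5 and Flt1 at 0. The 5 fibroblast genes summed to 27.7 to 43.03 TPM in KO and 22.3 to 44.6 TPM in WT libraries, and the 2 erythroid genes with a row to 12.3 to 54.5 TPM in KO and 3.60 to 19.1 TPM in WT libraries, with Hbb-b1 at 0. With the satellite glia covariate 0 of 10 members passed, and the values of Egr3, Nr4a1 and Fosb turned sign. The markers behind that covariate differed between the groups themselves, so it is not independent of genotype. With it the calls over all tested rows went from 256 higher and 437 lower to 79 and 109. The part of the other cells in the members' values was not tested.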

How the data were processed

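The authors deposited 1 table of TPM values for 6 libraries, 1 column per library and replicates not pooled. Per the labels' protocols, RNA was extracted with PicoPure, amplified to cDNA with an Ovation kit and sheared before adapters were ligated. Cutadapt, Bowtie2 and RSEM 1.2.7 are named with the mm10 build, per the submitters' processing notes; their gene annotation was not given in the sources read. TPM keeps no depth, so the depth of each library is unknown, and each library sums to a fixed total, so abundant transcripts press down the values of others. Amplification from few cells adds noise to rare transcripts, and most members are rare.

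The test was limma 3.58.1 (R 4.3.3) with an intensity trend on log2(TPM + 1), over rows averaging 1 TPM or more, with genotype as the only term, two-sided, adjusted by Benjamini and Hochberg over all tested rows at 0.05. Differences are KO minus WT on that scale and understate changes of low rows. Calling was checked on simulated data. The labels do not say whether libraries came from separate animals. Ddx3y, of the Y chromosome, was at 32.7 TPM in KO and 33.3 TPM in WT replicate 3, and at 0.02 TPM or less in the others. With the Xist values above, each group held samples of both sexes. The p-values reflect the spread of these samples, which includes that difference and may otherwise be technical. Exact permutation over 3 and 3 libraries, whose smallest two-sided p is 0.1, was not used. The members and lists were chosen with earlier results of these data known. Named were all members, of each other list those called (up to 8) and the 2 highest by level, and the 5 rows most like Fos (1 gene that the rule names is not reported here); Egr2, Npas4, Hspa1a and the marker genes were named after their values were seen. Promoters and microRNAs came from RefSeq tables (GRCm38.p6) and gene positions and 3' untranslated regions from GENCODE vM21 (GRCm38, the assembly that mm10 names), searched with Python 3.11.15.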

Additional observations from a re-analysis of the deposited data

How the results depend on the processing

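Differences of Fos, Dusp1, Zfp36, Btg2 and Arc stayed positive and that of Ier2 negative in every alternative run, while calls did not hold. The number of members called higher was 0 in place of 1 with no filter, with the replicate block, with the satellite glia covariate, with no intensity trend and without replicate 3 of both groups, and 0 to 1 when single libraries were left out; the 1 without KO replicate 3 was Dusp1, not Fos. No member was called lower in any alternative. The median of the members was 0.71 with a filter at a mean of 5 TPM, which leaves only the 5 members with the highest levels, 0.28 with the satellite glia covariate, -0.0088 without replicate 3 of both groups, and 0.047 to 0.39 when single libraries were left out.

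Signs turned for Egr1, Fosb, Egr3 and Nr4a1. Egr1 was 0.0018 with median-of-ratios rescaling, 0.012 with quantile normalization, and -0.30 to 0.14 when single libraries were left out (positive without KO replicate 1 or WT replicate 2). Fosb was 0.025 with a pseudocount of 5, 0.057 with median-of-ratios rescaling, 0.032 with quantile normalization, 0.030 with the satellite glia covariate, and -0.24 to 0.39 when single libraries were left out (positive without KO replicate 1, WT replicate 2 or WT replicate 3). With the satellite glia covariate Egr3 was 0.018, Nr4a1 0.47, Mcl1 0.11 and Tob1 0.066. The cause of these changes was not tested.

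Over all tested rows 256 were called higher and 437 lower. The counts were 130 and 248 with no filter, 79 and 109 with the satellite glia covariate, 57 and 168 with no intensity trend, 65 and 139 without replicate 3 of both groups, and 48 to 348 and 116 to 487 when single libraries were left out, moving by over 1.5 times without KO replicate 1, KO replicate 2, WT replicate 2 or WT replicate 3. Higher rows made up 36.9% of calls, and 49.3% with median-of-ratios rescaling (375 and 385) or 25.3% with no intensity trend. Among the 4 other lists 3 genes were higher and 3 lower; 1 was lower with no filter or the satellite glia covariate, 1 was higher and 1 lower without replicate 3 of both groups, and 1 to 3 higher and 1 to 2 lower when single libraries were left out.

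Same-numbered KO and WT libraries deviated together only weakly (correlations of 0.0382 to 0.0659 between deviations from the group means). Libraries of unlike number had correlations of -0.0976 to 0.0705. Replicate 3 of both groups shared its low Xist level (0 TPM in KO and 0.06 TPM in WT). Whether the numbers pair the samples cannot be told from these values. With the replicate block 188 rows were higher and 341 lower, and Fos had an adjusted p of 0.0692 and Dusp5 of 0.0844; no other call of a member or of a named gene of the 4 other lists changed. Differences of rows at a few TPM are limited by unknown depth and by 3 libraries a group.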
